A study of Homo sapiens with 2 samples.

Results

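Integrin and laminin genes were examined for open chromatin at their transcription start sites (TSSs) in CAMA-1, a breast adenocarcinoma cell line. The members were all GENCODE protein-coding genes whose symbol is ITGA or ITGB followed by a digit, L, M, X, D, E or V alone, without the integrin-binding proteins, and all LAMA, LAMB and LAMC genes, which gave 38 of 20033 protein-coding genes. Of these, 26 encode integrin subunits and 12 encode laminin chains. Chromatin accessibility was measured by ATAC-seq, which uses a transposase (Tn5) to tag accessible DNA, and the data were 2 lists of peaks from 2 biological replicates of untreated adherent CAMA-1 cells, which the labels call epithelial. Both replicates form a single condition of a single cell line, so no group of samples was compared and no p-value was computed. Differences between genes are given beside the spread between the replicates.

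Integrins are receptors made of an alpha and a beta subunit that attach cells to the extracellular matrix or to other cells. Laminins are trimers of an alpha, a beta and a gamma chain and are major components of basement membranes, the sheets on which epithelia rest. In breast epithelium, integrin alpha-6 beta-4 binds laminin in hemidesmosomes, the junctions that anchor the cells to the basement membrane, whereas the beta-2 integrins are known for the adhesion of leukocytes.

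Values are the fold enrichments that the authors deposited for each peak, the height of the peak over the background of the library. A TSS peak is a peak with at least 1 base within 1 kb of an annotated TSS of the gene, and a gene without one was given the value 0. A value of 0 says that no peak was called, with the lowest fold enrichment among called peaks being 2.76 in replicate 1 and 2.65 in replicate 2. The lists held 245736 and 259745 peaks with medians of 8.28 and 7.96. The numbers of sequenced reads are not in the peak lists, but the fold enrichments were whole multiples of 0.230 in replicate 1 and 0.221 in replicate 2, which gave the number of reads stacked at the top of each peak over backgrounds of 3.35 and 3.52 reads. Intervals for these heights are 95% exact Poisson intervals and cover counting error alone. Fold enrichments were not corrected for the number of gene copies in the cells, and copy number was not analysed here, so each rank is given among all genes and among the genes of the same chromosome.

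The label of the cells was checked against markers. All 7 epithelial markers (EPCAM, KRT8, KRT18, KRT19, CDH1, ESR1 and GATA3) had a TSS peak in both replicates, from ESR1, the estrogen receptor, with 31.3 and 32.5, to KRT8, a keratin of simple epithelia, with 140.1 and 146.6. Of 7 leukocyte markers, 3 had a TSS peak in both replicates. Over all protein-coding genes this share was 79.3%, beside 100% of the epithelial and 42.9% of the leukocyte markers. At the TSS of the Ensembl canonical transcript, the 1 representative transcript per gene, CD14 was the only leukocyte marker with a peak, of 47.9 and 52.6. LCP2, an adaptor of T cell signalling, had 48.3 and 46.9 at other annotated TSSs only. PTPRC, CD3E, CD79A and SPI1, which encode the common leukocyte antigen, chains of the T and B cell receptors and the factor PU.1, had no TSS peak in either replicate.

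Most integrin and laminin genes had open chromatin at a TSS in CAMA-1. In both replicates, 34 of the 38 members (89.5%) had a TSS peak, beside 79.3% of all protein-coding genes. The members had more annotated TSSs (median 9 beside 5 for all genes) and were longer (median 80.6 kb beside 27.5 kb), which gives more places for a TSS peak, and the part of this in the count was not tested. At the canonical TSS alone, 26 of 38 members had a peak within 1 kb, beside 73.5% of all protein-coding genes, and in 21 of 38 the canonical TSS itself lay under a peak, beside 65% of genes. Their strongest TSS peaks had median fold enrichments of 34.9 in replicate 1 and 33.3 in replicate 2, beside 38.9 and 40.0 over all genes, and 18 of the members were above the median of all genes.

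**Figure D1:**
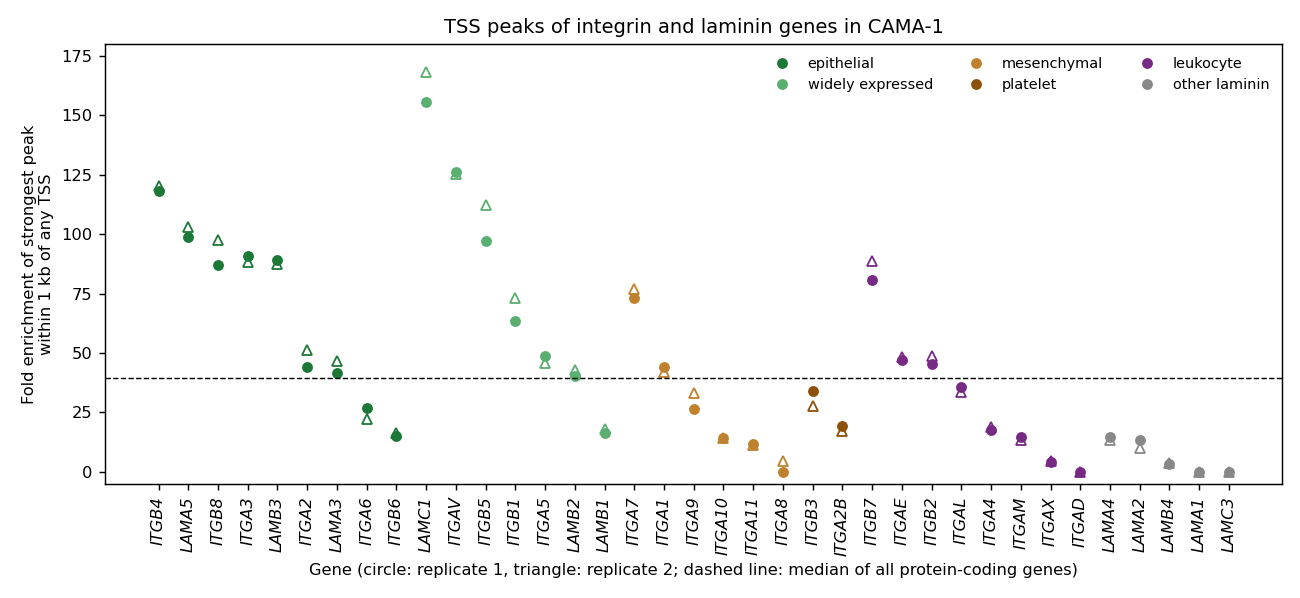
Fold enrichment of the strongest peak within 1 kb of any TSS for 37 of the 38 members (circle: replicate 1; triangle: replicate 2; 0: no peak), coloured by the cells in which the gene is known to be used, with the median over all protein-coding genes as a dashed line. LAMC1 had the highest values, 155.8 and 168.1, and ITGAD, LAMA1 and LAMC3 had no TSS peak in either replicate.

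The replicates gave like values for the members. Over the 34 members with a TSS peak in both, the log2 ratio of replicate 2 to replicate 1 had a median of 0.04, the same as the 0.04 over all genes, and ranged from -0.45 for LAMA2 to 0.33 for ITGA9. Over all genes, the middle 90% of these ratios ran from -0.26 to 0.34. ITGA8, a subunit of a receptor of mesenchymal cells, was the single member with a peak in 1 replicate only, with 0 in replicate 1 and 4.64 in replicate 2. The height of that peak was 20 reads (12.2 to 30.9).

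The bases around the start sites differed between members in their content of CpG dinucleotides, which are dense at the promoters of many widely used genes. RefSeq promoter sequences (GRCh38.p14, 250 bases before and 50 after the start) were at hand for 26 of the 38 members and 15343 genes in all, and each of the 26 was identical to hg38. ITGA3, ITGA7, ITGA9, ITGAD, ITGAL, ITGAX, ITGB2, ITGB3, ITGB4, LAMA1 and LAMC3 were among those not matched. Shown here are the bases before the start that no annotated exon covers, read 5′ to 3′ on the strand of the gene, with CpG dinucleotides in capitals. LAMC1, LAMA5 and ITGAV are the CpG-rich promoters with the highest fold enrichments among the 26.
LAMC1 (chr1:183023170-183023419, plus strand): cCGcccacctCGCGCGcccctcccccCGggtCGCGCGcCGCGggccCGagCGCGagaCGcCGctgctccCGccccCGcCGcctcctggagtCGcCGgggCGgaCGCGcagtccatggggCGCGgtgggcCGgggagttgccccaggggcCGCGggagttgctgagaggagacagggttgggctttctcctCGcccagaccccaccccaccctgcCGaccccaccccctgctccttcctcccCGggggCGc
LAMA5 (chr20:62367313-62367562, minus strand): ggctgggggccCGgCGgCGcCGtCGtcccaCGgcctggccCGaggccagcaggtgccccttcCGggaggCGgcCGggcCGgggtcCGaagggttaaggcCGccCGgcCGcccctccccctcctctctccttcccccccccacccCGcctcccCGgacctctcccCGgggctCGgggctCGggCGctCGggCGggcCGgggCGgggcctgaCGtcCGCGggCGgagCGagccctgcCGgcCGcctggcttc
ITGAV (chr2:186589806-186590009, plus strand): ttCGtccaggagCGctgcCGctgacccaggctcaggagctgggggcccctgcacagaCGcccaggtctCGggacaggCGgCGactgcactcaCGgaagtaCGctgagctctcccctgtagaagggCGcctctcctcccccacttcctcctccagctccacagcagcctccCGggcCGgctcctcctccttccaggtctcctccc
These hold 32 CpGs in 250 bases for LAMC1, 32 CpGs in 250 bases for LAMA5 and 12 CpGs in 204 bases for ITGAV.

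The next sequences belong to members that had no peak over the promoter in both replicates. ITGAM, ITGAE and ITGB7 are leukocyte integrin genes with few CpGs, ITGA11 is a mesenchymal integrin gene with many, and LAMB3 is an epithelial laminin gene with few CpGs and a strong peak just upstream.
ITGAM (chr16:31259725-31259966, plus strand): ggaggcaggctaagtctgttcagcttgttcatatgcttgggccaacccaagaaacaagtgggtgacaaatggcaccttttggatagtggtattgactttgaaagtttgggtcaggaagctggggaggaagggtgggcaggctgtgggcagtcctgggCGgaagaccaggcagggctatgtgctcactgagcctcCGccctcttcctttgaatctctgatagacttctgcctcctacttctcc
ITGAE (chr17:3801189-3801438, minus strand): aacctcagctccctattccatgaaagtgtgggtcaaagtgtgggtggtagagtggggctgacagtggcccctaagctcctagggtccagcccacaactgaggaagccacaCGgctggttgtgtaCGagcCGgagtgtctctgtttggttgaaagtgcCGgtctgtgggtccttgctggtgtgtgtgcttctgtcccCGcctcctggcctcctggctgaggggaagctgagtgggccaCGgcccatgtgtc
ITGB7 (chr12:53207283-53207501, minus strand): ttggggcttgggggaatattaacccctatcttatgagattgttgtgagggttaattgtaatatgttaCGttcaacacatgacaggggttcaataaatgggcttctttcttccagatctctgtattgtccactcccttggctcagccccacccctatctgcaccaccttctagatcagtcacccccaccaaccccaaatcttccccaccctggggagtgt
ITGA11 (chr15:68432164-68432413, minus strand): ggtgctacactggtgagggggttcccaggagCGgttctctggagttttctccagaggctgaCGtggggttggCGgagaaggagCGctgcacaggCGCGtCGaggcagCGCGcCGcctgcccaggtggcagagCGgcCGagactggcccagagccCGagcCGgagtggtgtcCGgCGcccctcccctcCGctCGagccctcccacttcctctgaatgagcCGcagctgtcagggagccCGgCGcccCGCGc
LAMB3 (chr1:209652426-209652675, minus strand): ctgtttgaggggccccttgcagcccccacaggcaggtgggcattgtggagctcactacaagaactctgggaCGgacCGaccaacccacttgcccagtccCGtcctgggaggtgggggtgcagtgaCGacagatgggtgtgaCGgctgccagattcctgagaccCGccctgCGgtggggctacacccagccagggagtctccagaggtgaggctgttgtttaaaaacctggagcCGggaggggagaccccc
These hold 2 CpGs in 242 bases for ITGAM, 6 CpGs in 250 bases for ITGAE, 1 CpG in 219 bases for ITGB7, 23 CpGs in 250 bases for ITGA11 and 8 CpGs in 250 bases for LAMB3.

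The epithelial laminin receptors and laminins were open at or near their canonical TSSs. All 10 epithelial members had a peak within 1 kb of the canonical TSS in both replicates, beside 73.5% of all protein-coding genes. Among them were ITGA2, ITGA3, ITGA6, ITGB4, ITGB6, ITGB8, LAMA3, LAMA5 and LAMB3. In 7 of 10 the canonical TSS lay under a peak in both replicates, close to the 65% of all genes. ITGB6 and LAMB3 were among the exceptions. The median of their strongest TSS peaks was 65.6 in replicate 1 and 69.3 in replicate 2 (67.4 ± 2.65, SD, n = 2), and 7 of 10 were above the median of all genes.

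ITGB4, the beta subunit of the hemidesmosomal laminin receptor (chr17:75721328-75757818 on the plus strand), had the highest value of the epithelial members, with 118 in replicate 1 and 120.1 in replicate 2. This peak, which had heights of 512 reads (469 to 558) and 542 reads (497 to 590), lay inside the gene 1587 and 1579 bp from the canonical TSS, and the region over the canonical TSS had 90.2 and 92.9. Its partner ITGA6 (chr2:172427354-172506459, plus strand) had 26.9 and 22.1 at the canonical TSS. The peak of ITGB4 was therefore several times higher than that of the alpha subunit with which it pairs, a difference larger than the spread between the replicates. ITGA3, the alpha subunit of the other epithelial laminin receptor, had 84.9 and 74.5 over the canonical TSS and 90.7 and 88.5 in a separate region 6143 and 6165 bp into the gene. The region over its canonical TSS also holds the TSS of the noncoding PICART1. ITGA2, a collagen receptor subunit of epithelia, had 44.2 and 51.1.

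Among beta subunits that pair with alpha-V, ITGB8 had 87.0 in replicate 1 and 97.7 in replicate 2 over the canonical TSS. ITGB6, whose product is found on epithelia and is known for activating TGF-beta, had 15.2 in replicate 1 and 16.4 in replicate 2 in different regions, 563 and 5522 bp from the canonical TSS, and none of its 7 annotated TSSs lay under a peak. The region nearest to the canonical TSS, at 340 and 315 bp, had 5.29 and 4.86. The promoter of ITGB6 held 0 CpGs in 300 bases.

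The epithelial laminin chains differed among themselves. LAMB3 (chr1:209614870-209652425, minus strand) had 89.3 and 87.6, and LAMA3 (chr18:23689453-23956222, plus strand) had 41.6 and 46.4 over its canonical TSS. At its RefSeq start, 183567 bp into the gene, LAMA3 had only 3.22 and 4.20. By the strongest TSS peak, LAMB3 was above LAMA3 in both replicates, by more than the spread between them. LAMA5, the alpha chain of the laminins widespread in epithelial basement membranes, had 98.9 and 102.8.

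The strong peak of LAMB3 lay upstream of the start and not over it. It began 382 bp from the canonical TSS in replicate 1 and 228 bp in replicate 2, so that it reached into the 300-base promoter window in replicate 2 only. Another region of 89.0 and 87.1 lay 1091 bp into the gene, over 2 of its other annotated TSSs. The 300 bases at the middle of the upstream region are shown because they hold 2 CpGs and 1 match to the AP-1 motif TGANTCA, given in capitals, on the plus strand of hg38.
LAMB3 upstream region (chr1:209652978-209653277): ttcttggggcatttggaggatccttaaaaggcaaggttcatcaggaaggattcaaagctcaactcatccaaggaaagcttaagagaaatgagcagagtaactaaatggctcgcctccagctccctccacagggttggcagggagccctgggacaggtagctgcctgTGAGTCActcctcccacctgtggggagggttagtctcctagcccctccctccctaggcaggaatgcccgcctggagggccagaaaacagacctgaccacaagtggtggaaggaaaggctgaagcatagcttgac
The AP-1 motif was present in 13.8% of the 300-base centres of open regions inside protein-coding genes and in 5.74% of the 300-base promoters of all genes. The window also holds 1 match to the RUNX motif TGTGGT, which is not in capitals. A match is a description of the letters and not of binding.

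Several leukocyte members had their strongest peaks at TSSs other than the canonical one. In 3 of 8 the strongest lay within 1 kb of the canonical TSS in both replicates, beside 12406 of 20033 protein-coding genes. The same held for 19 of all 38 members, 7 of 10 epithelial members and 3 of the 6 epithelial integrin genes. Genes without a TSS peak are in these totals. Of 8 leukocyte integrin genes, 7 (87.5%) had a TSS peak in both replicates, beside 79.3% of all protein-coding genes, and the median of the strongest was 26.7 in replicate 1 and 26.2 in replicate 2 (26.4 ± 0.345, SD, n = 2). At the canonical TSS, 4 of 8 had a peak within 1 kb, beside 73.5% of all genes. The other 4 were at 0, so the medians there of 2.07 and 2.32 are midpoints between 0 and the lowest called member, ITGAX. In 2 of 8, ITGA4 and ITGAX, the canonical TSS lay under a peak in both replicates, beside 65% of all genes. The 3 leukocyte members above the median of all genes were ITGB7, ITGAE and ITGB2, and all 3 had their strongest peak kilobases away from the canonical TSS.

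ITGB7 (chr12:53191323-53207282, minus strand), the beta subunit of gut-homing lymphocyte integrins, had 80.5 and 88.9 in a peak over an internal TSS, 9173 bp from the canonical one in both replicates. Within 1 kb of the canonical TSS it had 5.06 and 9.73, at distances of 979 and 993 bp. ITGAE (chr17:3714628-3801188, minus strand), its alpha partner on intraepithelial lymphocytes, had 46.9 and 48.4 at an internal TSS and no peak nearer than 25133 bp to the canonical TSS. Another of the open TSSs of ITGAE, with 13.3 and 19.7, lay in the same region as the TSS of HASPIN, a kinase gene within ITGAE, so these reads cannot be assigned to 1 gene. By any TSS the values of both genes were within the range of the epithelial members, and at the canonical TSS they were low or 0.

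Of the genes of the beta-2 integrins of leukocytes, ITGB2 and ITGAL had peaks at other TSSs but none within 1 kb of the canonical one. ITGB2 (chr21:44885953-44931989, minus strand), the shared beta subunit, had 45.6 and 48.6 at internal TSSs and its nearest peaks to the canonical TSS were 7118 and 6773 bp away. It was above 56.1% of all genes and above 70.2% of those on chromosome 21, whose genes had a median of 21.8. ITGAL, the alpha subunit of LFA-1, had 35.9 and 33.4 at an internal TSS that shares its region with the start of a noncoding gene, and its nearest peaks to the canonical TSS were 4087 and 4089 bp away. ITGAM, the alpha subunit of Mac-1, had 14.7 and 13.5 downstream of its canonical TSS, with none of its 8 TSSs under a peak. ITGAX, known as a marker of dendritic cells, had 4.14 and 4.64 over the canonical TSS, with heights of 17 and 20 reads, and ITGAD had no TSS peak, its nearest peaks being 4537 and 4406 bp from the canonical TSS.

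ITGA4, which pairs with ITGB1 or ITGB7 and is also found outside leukocytes, was the leukocyte member with the strongest peak over its canonical TSS. It had 17.5 in replicate 1 and 19.0 in replicate 2, with heights of 75 reads (59.0 to 94.0) and 85 reads (67.9 to 105.1). These values are below those of 8 of the 10 epithelial members at the canonical TSS and above those of ITGB6.

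**Figure D2:**
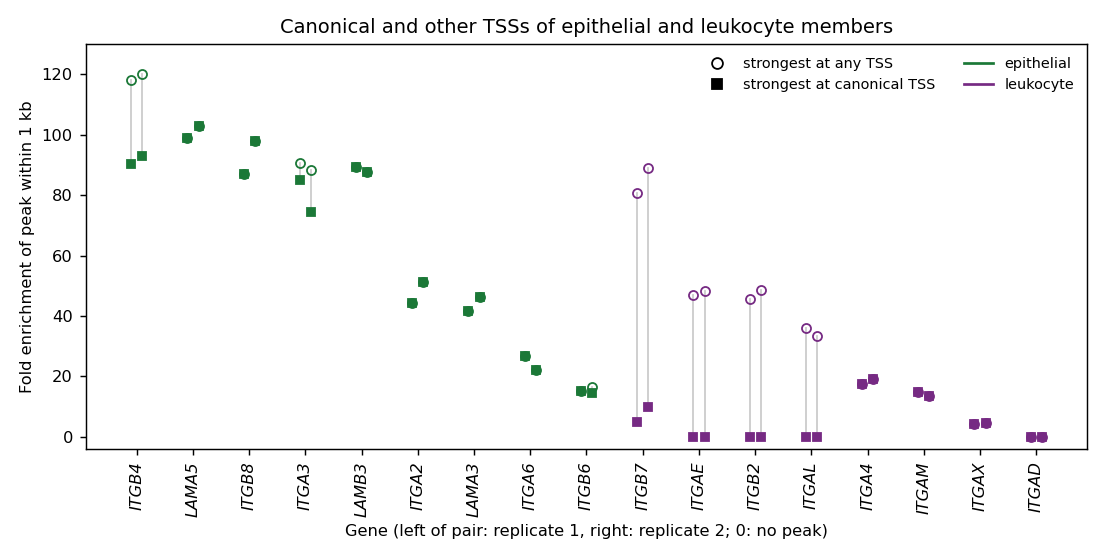
Fold enrichment of the strongest peak within 1 kb of any TSS (open circles) and of the canonical TSS (filled squares) for 9 of the 10 epithelial and all 8 leukocyte members, with replicate 1 at the left and replicate 2 at the right of each pair. In ITGB7, ITGAE, ITGB2 and ITGAL the values at the canonical TSS were between 0 and 9.73 while those at other TSSs were between 33.4 and 88.9, whereas 7 epithelial members were above 40 at the canonical TSS in both replicates.

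Epithelial and leukocyte members were compared in each replicate. By any TSS the epithelial median was 2.46-fold that of the leukocyte members in replicate 1 and 2.65-fold in replicate 2, and the groups overlapped, with ITGB7, ITGAE and ITGB2 above LAMA3, ITGA6 and ITGB6 in both replicates. At the canonical TSS the medians were 64.5 and 62.8 for epithelial members, beside 2.07 and 2.32, below any called peak, for the leukocyte members, of which 4 of 8 were at 0. The difference between the groups was larger than the spread between the replicates on either measure. That spread does not cover the differences among genes. By any TSS, the epithelial median was 45.8 instead of 67.4 without ITGA3 and ITGB8. The leukocyte median was 24.4 instead of 26.4 without ITGA4 and ITGAE. The groups had like numbers of annotated TSSs (medians of 8.5 and 10). With 2 replicates of 1 condition the difference between the gene groups was not tested, and genes are not replicates.

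The widely expressed members were all open at the canonical TSS. All 7 (ITGA5, ITGAV, ITGB1, ITGB5, LAMB1, LAMB2 and LAMC1) had the canonical TSS under a peak in both replicates, beside 65% of all protein-coding genes. The medians of their strongest TSS peaks were 63.3 and 73.0. LAMC1 (chr1:183023420-183145592, plus strand), the gamma chain of most laminins, had the highest value of all members, with 155.8 and 168.1 and heights of 676 reads (626 to 729) and 759 reads (706 to 815). This placed it above 97.8% of all protein-coding genes and above 94.5% of those on chromosome 1. ITGAV (chr2:186590010-186680901, plus strand), the alpha subunit shared by many receptors of the RGD motif, had 126.1 and 125.2 and was above 93.5% of all genes and above 97.6% of those on chromosome 2. Its beta partners ITGB5, with 97.1 and 112.1, and ITGB1, with 63.3 and 73.0, were lower. The region of ITGB1 also holds the TSS of the noncoding ITGB1-DT.

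ITGA5, the alpha subunit of the fibronectin receptor, had 48.5 and 46.0 in a peak 19465 and 19591 bp into the gene and 14.0 and 12.4 over the canonical TSS, far below ITGAV. The region over the canonical TSS of ITGA5 also holds the TSS of the noncoding GPR84-AS1. Of the other laminin chains, LAMB2 had 40.3 and 42.9, whereas LAMB1 had 12.4 and 10.4 over its canonical TSS and 16.3 and 17.9 just upstream. LAMC1 was thus the strongest of these laminin genes in both replicates.

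In 3 of the 6 mesenchymal members the strongest region lay within 1 kb of the canonical TSS in both replicates, beside 12406 of 20033 protein-coding genes. ITGA1, a collagen receptor subunit, had 44.2 and 41.8 in a peak 623 and 730 bp upstream, whereas the region over its canonical TSS had 10.4 and 15.9 and also holds the TSS of PELO, a ribosome rescue factor encoded in an intron of ITGA1. ITGA7, the laminin receptor subunit of muscle, had 72.9 and 76.7 in a peak 9092 and 9109 bp upstream of the canonical TSS, beside 17.5 and 12.6 over it. The region of that peak (chr12:55716996-55718136) covered no TSS of ITGA7, the nearest being 592 bp away. The neighbouring region (chr12:55715664-55716875), with 37.5 and 39.4, covers other TSSs of ITGA7 and also holds the TSS of BLOC1S1. The collagen receptor subunits ITGA10, with 14.3 and 14.2, and ITGA11, with 11.5 and 11.3, were low, and ITGA11 had no peak within 1 kb of its canonical TSS. ITGA9 had 26.5 and 33.2 over the canonical TSS.

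Of the platelet members, ITGB3 had 33.8 and 27.9 over its canonical TSS, in a region that also holds the TSS of an overlapping gene, and ITGA2B had 19.1 in replicate 1 and 17.0 in replicate 2, at different internal TSSs. The 5 laminin genes of other tissues were the lowest group. LAMA2 and LAMA4, chains of the laminins of muscle and vessels, had 13.6 and 10.0 and 14.5 and 13.3, all at TSSs far inside the gene, and LAMB4 had 3.45 and 3.54. LAMA1 and LAMC3 had no TSS peak, with the nearest peaks to the canonical TSS at 46898 and 46914 bp for LAMA1 and at 9482 and 2794 bp for LAMC3. None of the 5 had a peak within 1 kb of its canonical TSS in both replicates. The laminin genes above the median of all genes were LAMA3, LAMA5 and LAMB3 of epithelia and the widely expressed LAMB2 and LAMC1.

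The promoters of the members held fewer CpGs than those of all genes, with medians of 14 and 22 in 300 bases. A promoter was called CpG-rich where the CpG observed/expected ratio of its 300 bases was at least 0.6, which held for 12 of the 26 matched members (46.2%) and for 66.5% of all matched genes. A peak overlapped the promoter in both replicates in 15 of 26 members, beside 68.1% of all genes. Among CpG-rich promoters this was 10 of 12 members beside 85.9% of all genes, and among CpG-poor promoters 5 of 14 members beside 32.8%. Within each class the share of members was close to that of all genes. The 2 CpG-rich members without a peak in both replicates were ITGA11 (ratio 0.75) and ITGA8 (0.75), both mesenchymal. The 5 CpG-poor members with one were ITGA6, LAMA3, ITGA10, ITGA5 and LAMB2. That of LAMA3, at a start 183567 bp downstream of the canonical TSS, had 3.22 and 4.20. The RefSeq start of ITGA6 lay 250 bp upstream of its canonical TSS.

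**Figure D3:**
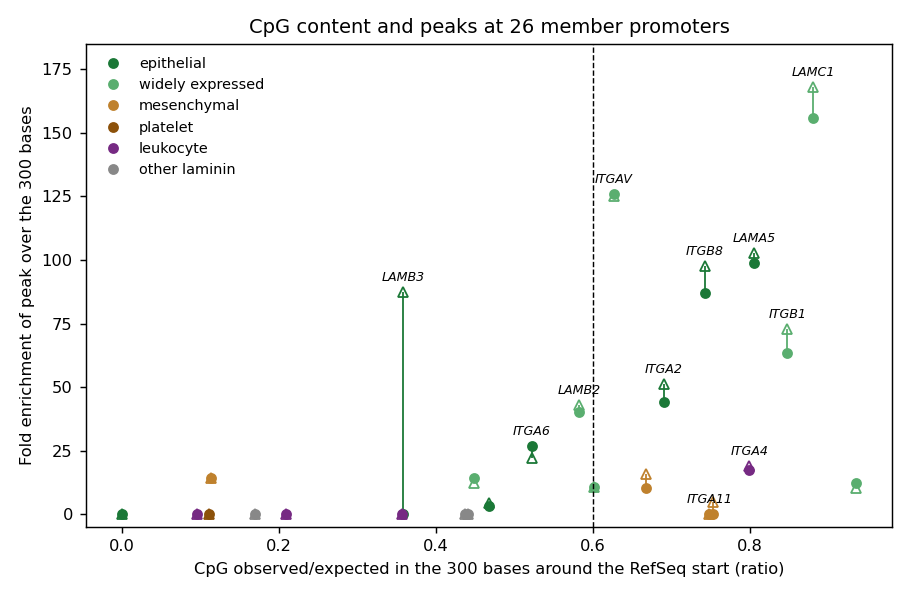
Fold enrichment of the strongest peak that overlaps the 300-base RefSeq promoter, in replicate 1 (circle) and replicate 2 (triangle), against the CpG observed/expected ratio of the promoter for the 26 matched members; the dashed line marks a ratio of 0.6. The promoters with values above 60 in both replicates were all CpG-rich, and LAMB3, with a ratio of 0.36, had 0 in replicate 1 and 87.6 in replicate 2 because the edge of its peak lay 228 bp from the start in the latter.

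Of the matched RefSeq promoters, 4 of 7 epithelial and 3 of 4 leukocyte ones were CpG-poor. A peak lay over the promoter in both replicates in 5 of 7 matched epithelial members and in 1 of 4 matched leukocyte members, ITGA4, which was also the only CpG-rich one of the 4 (ratio 0.80). ITGAE (0.36), ITGB7 (0.21) and ITGAM (0.10) were CpG-poor, as were the epithelial ITGA6 (0.52), LAMA3 (0.47), LAMB3 (0.36) and ITGB6 (0.00). The RefSeq starts of ITGA6 and LAMA3 lay 250 bp upstream and 183567 bp downstream of their canonical TSSs. Their strongest TSS regions covered the canonical TSS, and the centres of these regions had ratios of 0.99 and 0.86. For LAMB3 and ITGB6 such centres had 0.09 and 0.18, the region of ITGB6 being strongest in replicate 1 only. For ITGAE, ITGB7 and ITGAM they had 0.50, 0.69 and 0.41. The GC box GGGCGG, counted on both strands as for all motifs and with overlaps between motifs allowed, was in 6 of 7 epithelial, 1 of 4 leukocyte and 14 of all 26 member promoters and in 59.2% of all promoters. The PU.1 motif GAGGAA was in 3 of 4 leukocyte promoters, those of ITGAE, ITGAM and ITGB7, in 4 of 7 widely expressed and 10 of all 26 member promoters, and in 27.6% of all promoters. The AP-1 motif was in 2 of 26 member promoters, the RUNX motif TGTGGT in 2 (10.9% of all promoters), the ETS motif CCGGAA in 4 (23.1%), the AP-2 motif GCCNNNGGC in 5 (28.5%), the GATA motif AGATAA in 1 (7.46%), and the FOX motif TGTTTAC (2.63%) and the grainyhead motif AACNGGTT (1.62%) in 0. With so few promoters, these counts describe the sequences and no more.

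Many members had separate open regions near several of their TSSs. In 23 of 38 members, 2 or more separate regions called in both replicates lay near different TSSs, beside 38.5% of all protein-coding genes. Because members have more TSSs than other genes, this count is not independent of their number. ITGB5 (chr3:124761948-124901418, minus strand) had the most, with regions near 10 of its 13 TSSs. Apart from its canonical region, these included regions of 75.2 and 67.2, 73.6 and 80.7 and 63.5 and 73.2, at offsets of 45814, 77967 and 106661 bp into the gene. LAMA5 had regions near 7 of its 14 TSSs and ITGA7 near 6 of its 23, counting for each region the nearest TSS. A region within 1 kb of a TSS need not cover it. In LAMA5, 2 TSSs in replicate 1 and 3 in replicate 2 lay under a peak. Of all 416 annotated TSSs of the members, 30.3% and 30.5% were covered by a peak in replicates 1 and 2, beside 50.2% and 50.5% of the TSSs of all genes. Most annotated TSSs of members were therefore outside peaks, although most members had at least 1 open TSS.

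Open regions were also counted inside the genes, more than 1 kb from each TSS of the gene. Regions called in both replicates were found in 36 of 38 members, all but ITGA2B and LAMB2, beside 70.2% of all protein-coding genes. They numbered 339, or 8.42 per 100 kb of gene, beside 7.42 per 100 kb over all genes, and their median fold enrichments of 9.43 and 9.29 were close to the 8.97 and 9.29 over all genes. An exon overlapped 80 of the 339, and none lay within 1 kb of a TSS of another coding gene. The epithelial members held 100 regions, or 11.6 per 100 kb, and the leukocyte members 31, or 7.47 per 100 kb. The medians per gene were closer, 12.1 and 10.2 per 100 kb, and the widely expressed members held 11.4 per 100 kb. Median fold enrichments of these regions were 8.74 and 8.40 for epithelial and 9.89 and 11.1 for leukocyte members.

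**Figure D4:**
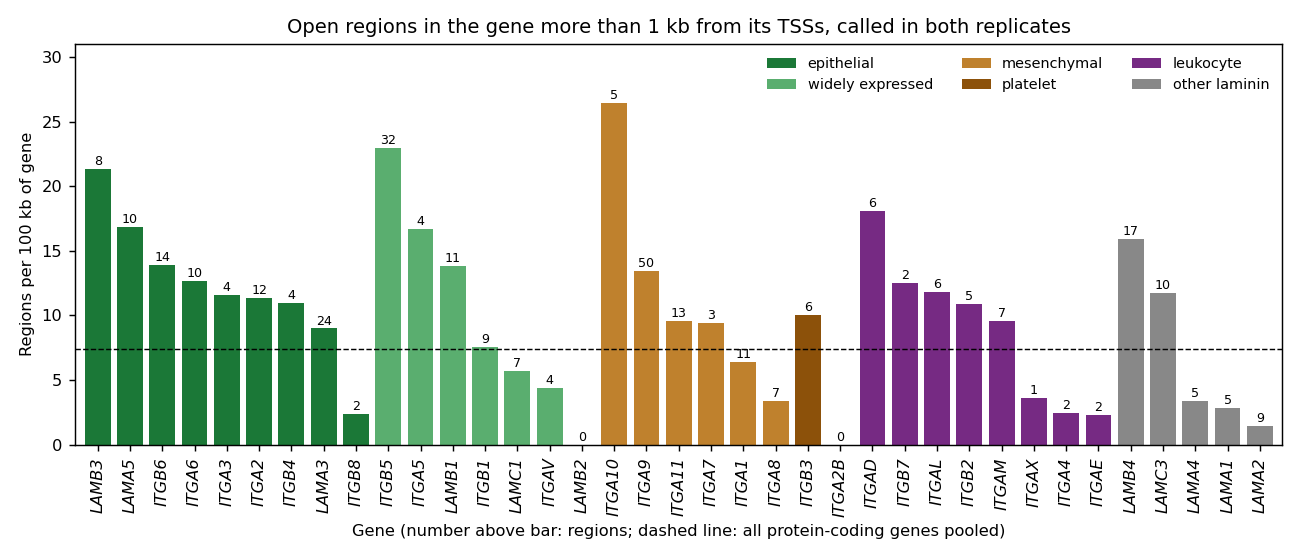
Regions called in both replicates inside the members and more than 1 kb from its TSSs, per 100 kb of gene for 37 of the 38 members, with the number of regions above each bar and the value pooled over all protein-coding genes as a dashed line. ITGA10, ITGB5 and LAMB3 were above 20 per 100 kb, and ITGA2B and LAMB2 had none.

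Some of the regions inside genes were stronger than the TSS peak of the same gene. The intronic region of ITGB5 at chr3:124836975-124838238 (hg38) had 137.8 in replicate 1 and 152.4 in replicate 2, above the 97.1 and 112.1 at its TSSs, and ITGB5 held 32 such regions, or 22.9 per 100 kb. ITGA9, the alpha-9 subunit, held 50, the most of any member, of which one near the start of the noncoding ITGA9-AS1 had 129.5 and 114.8 and another had 102.9 and 116.8. ITGB2 had a region of 97.1 and 100.8 inside the gene, above its strongest TSS peak in both replicates. ITGA10 had 144.3 and 136.9 at its 3′ end, near the start of a noncoding gene. The density was 21.3 per 100 kb in LAMB3 and 18.1 in ITGAD, a leukocyte gene without a TSS peak. ITGAX, ITGA4 and ITGAE had 3.59, 2.45 and 2.31 per 100 kb.

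The strongest exon-free region of LAMC1, with 94.3 and 106.6, is shown because its central 300 bases hold 2 matches to the AP-1 motif, 1 to the FOX motif and 1 to the GATA motif, given in capitals on the plus strand of hg38.
LAMC1 intronic region (chr1:183060502-183060801): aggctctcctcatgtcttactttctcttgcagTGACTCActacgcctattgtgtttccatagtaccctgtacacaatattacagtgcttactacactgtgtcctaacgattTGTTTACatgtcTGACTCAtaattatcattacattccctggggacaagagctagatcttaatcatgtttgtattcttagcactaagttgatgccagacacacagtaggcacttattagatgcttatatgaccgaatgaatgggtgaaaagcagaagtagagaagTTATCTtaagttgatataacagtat
Among the 300-base centres of all such regions in protein-coding genes, 13.8% held the AP-1 motif, 7.62% the FOX motif and 14.9% the GATA motif, beside 15.0%, 8.26% and 12.1% of those of the members. The AP-1 motif was in 18 of 100 epithelial regions and 5 of 31 leukocyte regions.

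Genes that act with integrins were examined by lists of 16 adaptors and 13 basement membrane and hemidesmosome genes. Of the adaptors, which link the cytoplasmic tails of integrins to actin and signalling, 15 of 16 had a TSS peak in both replicates, and 13 of 16 (81.2%) at the canonical TSS, beside 79.3% and 73.5% of all protein-coding genes. TLN1, the talin that activates integrins, was highest with 131.4 and 134.7. The kindlins, co-activators of integrins, differed by gene. FERMT1, known for its use in epithelia, had no TSS peak, FERMT2, the widely expressed kindlin, had 30.1 and 35.2 at the canonical TSS, and FERMT3, the kindlin of blood cells, had 23.9 and 25.0 at another TSS and none at the canonical one.

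Of the 13 basement membrane and hemidesmosome genes, 11 (84.6%) had a TSS peak in both replicates and 8 (61.5%) at the canonical TSS, beside 79.3% and 73.5% of all protein-coding genes. The cytolinkers of the hemidesmosome were the highest, PLEC with 174.6 and 185.1 and DST with 160.8 and 154.1. The PLEC values came from different peaks, 1235 bp from the canonical TSS in replicate 1 and over it in replicate 2. Within 1 kb of that TSS, PLEC had 35.4 in replicate 1 and 185.1 in replicate 2. The DST peak lay 411497 and 411593 bp from its canonical TSS, where DST had 101.2 and 107.2. Among the lowest were COL17A1, the hemidesmosomal collagen, with 9.89 and 7.74 at other TSSs, and the nidogens that link laminin to collagen IV, NID2 with 0 and 4.20 and NID1 with none. By the strongest peak at any TSS, PLEC was thus above every integrin and laminin gene in both replicates. DST was above all of them in replicate 1 and above all but LAMC1 in replicate 2.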

How the data were processed

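ATAC-seq was performed by the authors on 2 biological replicates of CAMA-1 cells. Per the labels, the submitters' processing notes name Trim Galore 0.6.5, Bowtie2 2.3.5.1 and MACS2 2.2.6 and the build hg38. The settings of MACS2, the treatment of duplicate reads and any shift of the reads for Tn5 are not given in the sources used here, and such choices bear on the edges and heights of peaks. Peaks were called in each replicate separately, and without a summit column in the lists whole peaks were used. For each peak the authors deposited a score, its fold enrichment over background as a ratio, and p-values and q-values as −log10. None of these is a read count, so no count model was used.

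Peaks were compared with GENCODE release 44 TSSs on hg38, and 0 peaks passed the end of a chromosome. The strongest peak within 1 kb of a TSS was taken per gene. Peaks of both replicates that overlapped by at least 1 bp were merged into regions, and a region inside a gene more than 1 kb from its TSSs was counted as such. Mean ± SD is over 2 replicates. Promoters came from RefSeq (GRCh38.p14), matched by symbol. Motifs were matched on both strands. Alternatives were another distance to the TSS, the canonical TSS alone, a stricter q, peak midpoints, reciprocal overlap, other groups, the score, and the omission of each replicate. Scripts used Python 3.11.15, numpy 2.4.6, pandas 2.3.3, scipy 1.17.1 and matplotlib 3.10.9 and were tested on simulated data.

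The values of 1 member and 1 leukocyte marker entered the counts and medians and are not reported here. Every other member is named, with values in both replicates for each leukocyte member and for the highest and lowest of each role group. Of the adaptor and basement membrane lists, the FERMT genes and the highest and lowest are named, and others were chosen after their values were seen. Members, groups and lists were chosen, from textbook roles, with earlier results of these data known. Other assays and models of the study were not analysed here.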

Additional observations from a re-analysis of the deposited data

How the results depend on the processing

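Of 55 values recomputed under alternatives for 7 results, 46 stayed within 1.5 times the reported count or within 1 SD of the reported median. The other 9 moved beyond that. Some of these outcomes were fixed in advance. A median from 1 replicate always lies within 1 SD of the mean of both, and the medians of the score are in other units. With the canonical TSS alone, the leukocyte members with a peak in both replicates numbered 4 instead of 7, and the medians were 63.7 for epithelial and 2.20 for leukocyte members instead of 67.4 and 26.4. With a distance of 100 bp in place of 1 kb, the epithelial median was 63.7. Members with separate regions near different TSSs then numbered 11 instead of 23. Without ITGA3 and ITGB8 the epithelial median was 45.8, and without ITGA4 and ITGAE the leukocyte median was 24.4. On the deposited score, the medians were 4563 and 1318. The epithelial median was above the leukocyte median in all of these. Leaving out either replicate gave 34 to 35 members with a TSS peak. The epithelial medians were then 65.6 to 69.3 and the leukocyte medians 26.2 to 26.7. Members with separate regions near different TSSs numbered 24 to 27, and regions inside genes 389 to 405. With a −log10 q of at least 10, 31 members kept a TSS peak in both replicates, 9 of 10 epithelial and 6 of 8 leukocyte. The medians were not recomputed within 3 kb. No paired analysis was possible because the data hold 1 condition. A gene at 0 has no called peak at this depth, which is not the absence of accessibility. Several members share a region with another gene, and ATAC-seq cannot tell whose TSS is open.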
